A study of Mus musculus with 10 samples.

Results

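Cell cycle and DNA replication genes were examined in bulk RNA sequencing of MB-49 tumors, as the 42 members of a list drawn up for these pathways, all of which stand in a table of 24202 gene symbols. They were matched by gene symbol. MB-49 is a mouse bladder cancer cell line, of which 100000 cells were injected subcutaneously on one flank. All host mice carried a knock-in of human LRRC32 (hLrrc32), the gene of GARP, a surface protein that holds latent TGF-beta. The 5 PIIO-1 tumors came from mice given this GARP antibody into the peritoneum at 200 ug per mouse on days 6 and 9, and the 5 PBS tumors from mice given PBS; all were collected on day 10. PIIO-1 columns carry the name a4D3 in the deposited table. Single-cell suspensions of whole tumors gave the RNA, so cancer cells and host cells are mixed in every library. The labels do not say that tumors of a group came from separate animals, so p-values measure the spread between these samples, which may be technical.

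A cell that divides passes through phases that different genes serve. D cyclins with CDK4 and E cyclins with CDK2 release E2F transcription factors from the retinoblastoma protein in G1, and E2F then switches on the genes of DNA replication. In S phase the MCM helicase, loaded by CDC6 and completed by CDC45 and the GINS complex, opens the DNA, PCNA clamps the polymerases to it, and ribonucleotide reductase and thymidylate synthase supply nucleotides. Cyclins A and B with CDK1, the factor FOXM1, the Aurora and Polo kinases and the kinetochore proteins carry mitosis, which the ubiquitin enzymes of mitotic exit end. In a tumor such transcripts come from dividing cancer cells and from dividing host cells such as activated lymphocytes.

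Replication and mitosis genes differed in the letters of their promoters. RefSeq promoters (GRCm38.p6, 250 bases before to 50 bases after the start) matched 32 of the 42 members by symbol, with 34 promoters in all. Aurkb, Ccna2, Ccnd1, Ccnd2, Ccne2, Foxm1, Gins2, Kif20a, Mcm4 and Tpx2 were not matched. The E2F motif was searched as TTTCCCGC, TTTCGCGC, TTTGCCGC or TTTGGCGC, the cell cycle homology region (CHR) as TTTGAA, and the box bound by NF-Y as CCAAT, all on both strands. The E2F forms can overlap each other; the CHR and CCAAT letters were counted wherever they stood. E2F letters stood in 5 of 12 promoters of S phase genes, in 1 of 16 promoters of mitosis genes and in 2.26% of all 32851 RefSeq promoters. All 5 belonged to genes of the helicase and its loading (Cdc6, Mcm3, Mcm5, Mcm6 and 1 promoter of Mcm7). The other Mcm7 promoter, Mcm2 and Cdc45 held none, nor did the clamp and nucleotide supply genes Pcna, Rrm1, Rrm2 and Tyms. CHR letters stood in 2 of 12 promoters of S phase genes and in 12 of 16 promoters of mitosis genes, against 17.9% of all promoters. CCAAT was common in both, in 10 of 12 and in 15 of 16 promoters, against 37.4% of all. The GC box, searched as GGGCGG, was common in both as well, in 9 of 12 and in 14 of 16 promoters, against 35.7% of all. The promoters set beside them were not matched for base composition. A match is a description of these windows and not a bound site.

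Upstream parts of 4 promoters are printed because they show these arrangements side by side, an E2F promoter (Mcm6), one with both kinds of letters (Cdk1) and mitosis promoters (Ccnb2 and Cdc20). Each covers the 250 bases before the start, 5′ to 3′ on the gene's strand, with capitals for E2F, CHR and CCAAT letters on either strand.
Mcm6 (chr1:128359706-128359955, minus strand): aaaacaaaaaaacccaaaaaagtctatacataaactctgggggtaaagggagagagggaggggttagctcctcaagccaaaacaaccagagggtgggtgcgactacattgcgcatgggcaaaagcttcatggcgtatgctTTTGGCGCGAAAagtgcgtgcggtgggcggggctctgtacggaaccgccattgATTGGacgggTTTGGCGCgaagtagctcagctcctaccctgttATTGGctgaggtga
Cdk1 (chr10:69352913-69353162, minus strand): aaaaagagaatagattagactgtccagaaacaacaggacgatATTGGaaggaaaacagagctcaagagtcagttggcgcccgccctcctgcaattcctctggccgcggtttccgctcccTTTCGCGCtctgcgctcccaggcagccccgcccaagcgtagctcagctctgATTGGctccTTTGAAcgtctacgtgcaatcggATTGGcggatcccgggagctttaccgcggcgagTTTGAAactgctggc
Ccnb2 (chr9:70421555-70421804, minus strand): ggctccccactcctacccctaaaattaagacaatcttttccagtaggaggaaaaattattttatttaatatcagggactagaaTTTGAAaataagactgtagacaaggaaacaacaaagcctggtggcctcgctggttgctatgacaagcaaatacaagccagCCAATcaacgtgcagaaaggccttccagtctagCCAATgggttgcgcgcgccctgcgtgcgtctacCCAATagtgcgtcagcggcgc
Cdc20 (chr4:118437344-118437593, minus strand): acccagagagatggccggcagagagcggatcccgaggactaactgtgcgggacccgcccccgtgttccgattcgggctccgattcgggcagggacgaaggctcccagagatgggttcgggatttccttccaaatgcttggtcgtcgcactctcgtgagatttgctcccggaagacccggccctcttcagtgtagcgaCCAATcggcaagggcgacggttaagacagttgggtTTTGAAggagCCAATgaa
In the printed part, Mcm6, a helicase subunit, holds E2F letters but no TTTGAA. Cdk1, the kinase of mitotic entry, holds E2F letters, TTTGAA and CCAAT. In Ccnb2 (cyclin B2) and Cdc20 (the activator of the anaphase-promoting complex) CCAAT and TTTGAA appear without E2F letters. The printed TTTGAA of Ccnb2 lies upstream of all its CCAAT letters. Ccnb2 also holds CHR letters just after the start, in bases that are not printed.

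**Figure D1:**
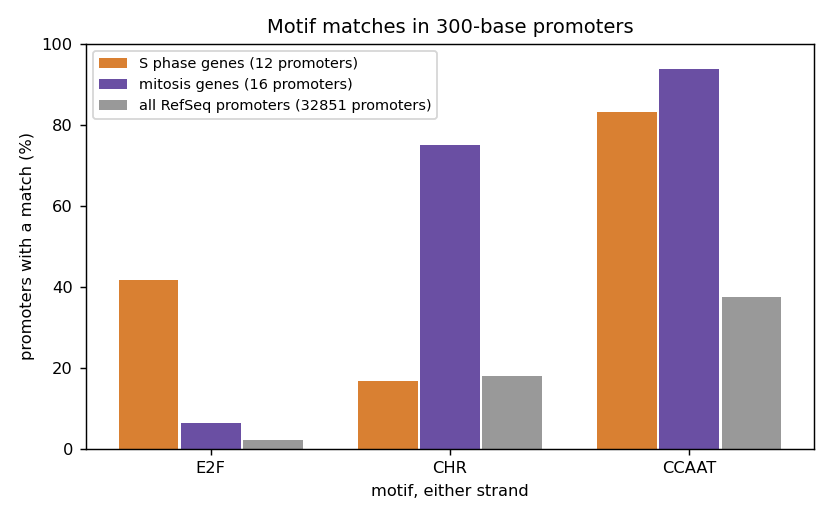
Share of RefSeq promoters (vertical axis, percent) with E2F, CHR or CCAAT letters on either strand, for S phase genes (orange, 12 promoters), mitosis genes (purple, 16 promoters) and all 32851 promoters (grey). E2F letters stood in 41.7% of the S phase promoters and 6.25% of the mitosis promoters, CHR letters in 16.7% and 75.0%. The S phase promoters with E2F letters were all of genes of the helicase and its loading.

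The libraries held between 29689555 and 35299028 recovered whole reads in PIIO-1 tumors and between 18843192 (PBS tumor 4) and 37581521 in PBS tumors. Of the epithelial markers, Krt8 averaged 59166 ± 5744 normalized counts in PIIO-1 tumors and 56281 ± 5016 in PBS tumors (SD, n = 5 each), while the urothelial markers Upk2 and Upk3a and the basal factor Trp63 averaged under 10 normalized counts. Of 9 epithelial markers tested 5 were above 0 and 4 below, between -0.45 (Epcam) and 0.72 (Cdh1); limma called none and counted 2, Cdh1 and Krt14, at an unadjusted p under 0.05. Leukocyte markers were present in every tumor: the summed level of 5 of them (Ptprc, Cd52, Laptm5, Coro1a and Cd53) ran between 29679 and 61883 normalized counts in PIIO-1 tumors and between 33908.5 and 51232 in PBS tumors. None of the 5 was called.

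No cell cycle gene differed between PIIO-1 and PBS tumors beyond the spread between tumors. Levels are the authors' normalized counts, and differences are PIIO-1 minus PBS on the log2(normalized count + 1) scale, with the standard error (SE) of limma. Of the 42 genes, which all passed the minimum mean of 10 normalized counts, 0 were called by limma at an adjusted p under 0.05, where percent called over 16767 genes was 0. At an unadjusted p under 0.05 limma counted 0 of the 42, against 5.63% of all genes tested. edgeR and DESeq2 on the recovered reads also called 0 of the 42, and counted 0 at an unadjusted p under 0.05, against 5.81% of all genes by edgeR and 6.04% by DESeq2. DESeq2 called 0.0179% of all genes and edgeR 0. For none of the 42 were all PIIO-1 values on one side of all PBS values, as they were for 0.853% of all genes.

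The intervals were narrow. All 42 of the 95% intervals of limma lay inside a 1.5-fold change either way, against 69.6% of all genes tested, which include genes of far lower counts. The lowest bounds were those of Ccne1, whose interval ran from 0.784-fold to 1.04-fold, and Ccnd1, from 0.798-fold to 1.02-fold, and the highest bound was 1.18-fold, for Mki67. The within-group SD of the 42 genes had a median of 0.11 on the log2 scale, against 0.17 over all genes. In bulk RNA, fewer dividing cells and less of a transcript per cell cannot be told apart.

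**Figure D2:**
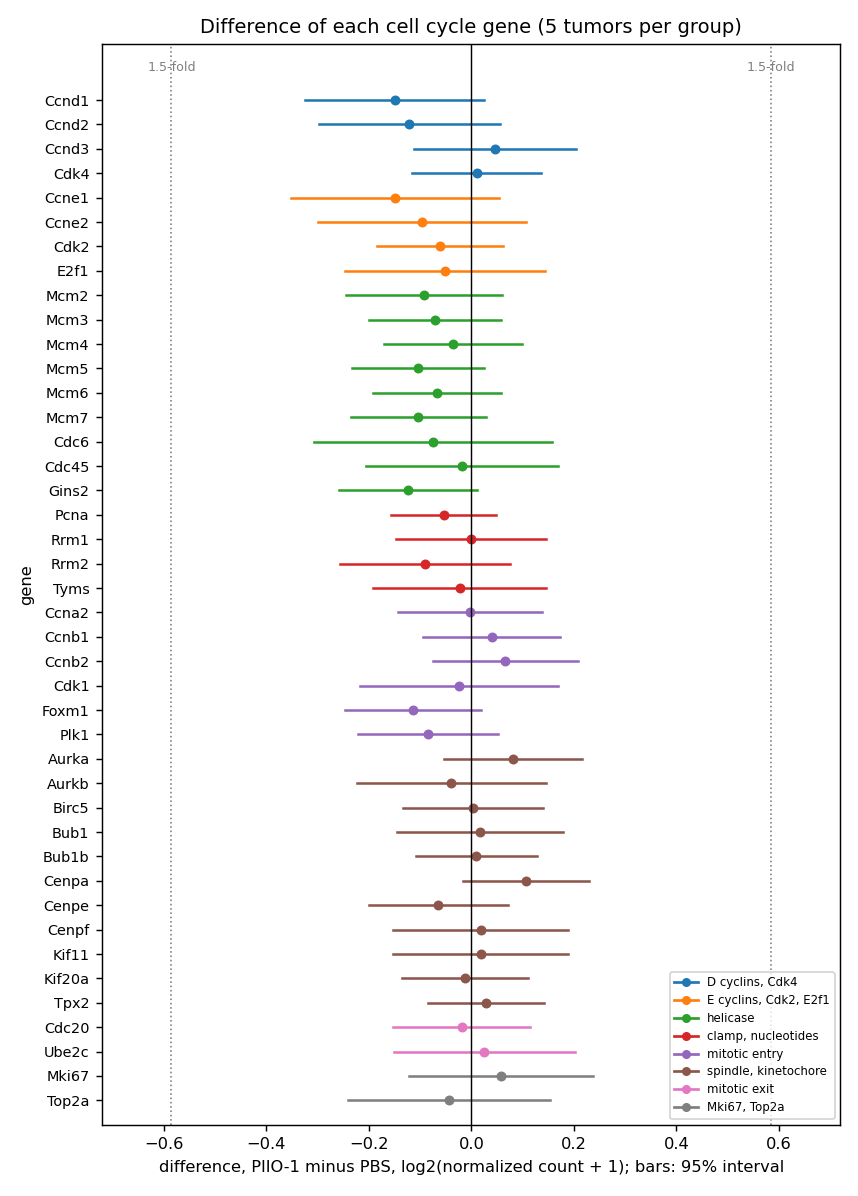
Difference of each of the 42 genes (horizontal axis, PIIO-1 minus PBS on the log2(normalized count + 1) scale; points, estimates; bars, 95% intervals of limma; 5 tumors per group), coloured by role. Every interval includes 0 and lies between the dotted 1.5-fold lines; Ccne1 and Ccnd1 reach farthest down, to 0.784-fold and 0.798-fold.

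Mki67, which encodes the proliferation antigen Ki-67 and lies on chromosome 7 (135689784 to 135716361, minus strand, GRCm38), stood at 14490.3, 12672, 13363, 11372 and 12289.6 normalized counts in PIIO-1 tumors 1 to 5. In PBS tumors 1 to 5 it stood at 10836, 13157, 11666, 14161 and 11918. The ranges overlapped, with the highest value in PIIO-1 tumor 1 and the lowest in PBS tumor 1. Its difference was 0.058 (SE 0.082, 95% interval -0.12 to 0.24; limma adjusted p = 0.925). Top2a, the topoisomerase that untangles DNA for chromosome segregation, stood at 15349.7, 13174, 14022, 11572 and 11395 in PIIO-1 tumors and at 11913, 14918, 13223, 14299.8 and 12958 in PBS tumors. PIIO-1 tumors held both its highest and its lowest value. The difference of Top2a was -0.044 (SE 0.090).

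D cyclins carry growth signals into the cycle. Ccnd1 stood at 28478, 25323, 25198, 23189 and 20770.3 normalized counts in PIIO-1 tumors and at 25859.5, 29588, 26266, 27565 and 26558 in PBS tumors. Of the PIIO-1 tumors 4 lay below every PBS tumor, while PIIO-1 tumor 1 lay above all but PBS tumor 2. The difference, -0.15 (SE 0.080, limma adjusted p = 0.837), was close in size to that of Ccne1, and with PIIO-1 tumor 5 left out it was -0.091. Ccnd2 stood at 3475, 3598, 3005, 3570.0 and 2812 in PIIO-1 tumors and at 3732, 3351, 3242, 3942 and 3587 in PBS tumors, with the lowest values in PIIO-1 tumors 5 and 3 (difference -0.12, SE 0.080). Ccnd3, the D cyclin prominent in lymphoid cells, stood at 2179, 2475, 2202, 2726 and 2606 in PIIO-1 tumors and at 2329.8, 2141, 2314, 2419 and 2575 in PBS tumors. It was highest in PIIO-1 tumors 4 and 5, which also held the highest summed leukocyte markers (61883 and 61412). It was lowest in PBS tumor 2 and PIIO-1 tumor 1, which held the lowest (33908.5 and 29679). PBS tumor 1, with a leukocyte sum of 51232, had Ccnd3 at 2329.8. PBS tumor 4, with a lower sum of 41295, had it at 2419. Summed levels of 7 T cell markers (Cd3d, Cd3e, Cd3g, Cd2, Cd8a, Cd4 and Trac) followed Ccnd3 only in part. They were highest in PIIO-1 tumor 5 (4638) and PBS tumor 1 (4426), and lowest in PIIO-1 tumors 1 (1677) and 3 (1785). PBS tumor 5, with Ccnd3 at 2575, had a T cell sum of 2425. The part of leukocytes or T cells in the level of Ccnd3 was not tested. The difference of Ccnd3 was 0.046 (SE 0.073) and that of Cdk4, the kinase partner of D cyclins, 0.010 (SE 0.057). Per kilobase of exon, Ccnd1 had the highest level of the 42 genes, 5496 normalized counts, against 365 for Ccnd2 and 273 for Ccnd3. The length is that of all annotated exons joined, 4709 bases for Ccnd1, 9409 for Ccnd2 and 8775 for Ccnd3. It lowers the level per kilobase where part of that length is not transcribed in these tumors, and the isoforms in use were not tested.

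The E cyclins, Cdk2 and E2f1 all had differences below 0, between -0.15 and -0.051. Ccne1 (cyclin E1) stood at 485, 509, 398, 417 and 398 normalized counts in PIIO-1 tumors and at 534, 510.1, 421, 492 and 486 in PBS tumors. PIIO-1 tumors 3, 4 and 5 lay below every PBS tumor, while PIIO-1 tumors 1 and 2 lay among them (difference -0.15, SE 0.093). E2f1, a main activator of replication genes, stood at 1578, 1499, 1545, 1313 and 1152 in PIIO-1 tumors and at 1365, 1603, 1341, 1521 and 1478 in PBS tumors. The PIIO-1 values of E2f1 spread more widely, with PIIO-1 tumor 5 lowest of all (difference -0.051, SE 0.089). Ccne2 and Cdk2 differed by -0.096 (SE 0.093) and -0.061 (SE 0.056).

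**Figure D3:**
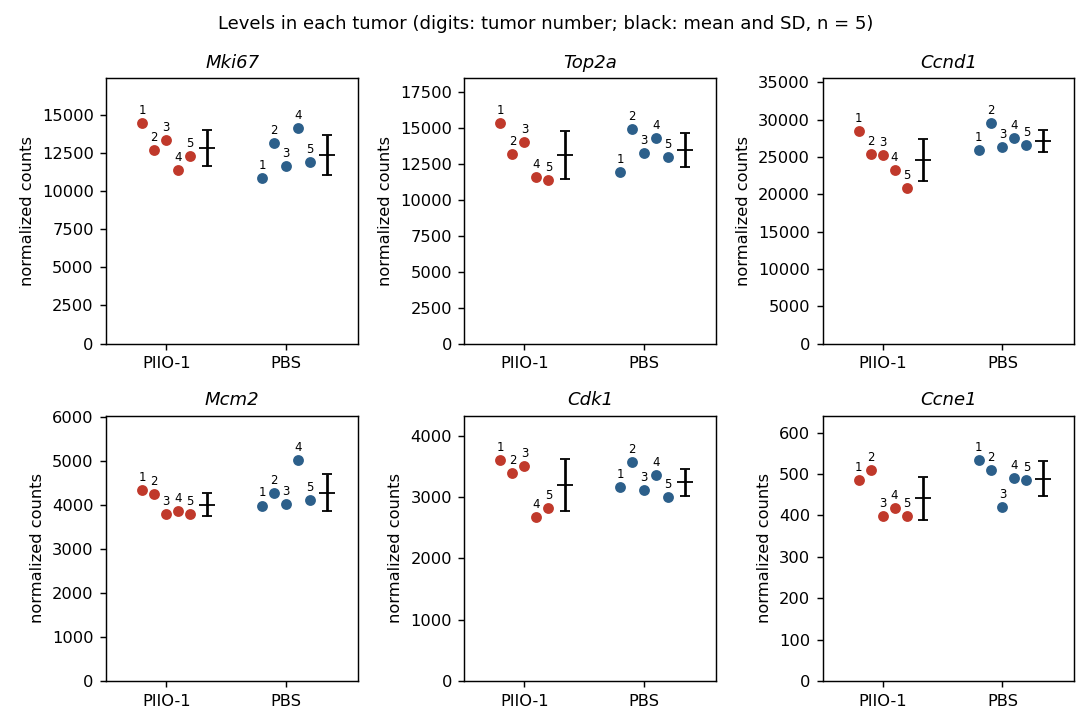
Normalized counts (vertical axes, from 0) of Mki67, Top2a, Ccnd1, Mcm2, Cdk1 and Ccne1 in each tumor of PIIO-1-treated mice (red) and PBS-treated mice (blue), numbered by tumor, with mean and SD in black (n = 5). The groups overlap for all 6 genes, and PBS tumor 4 stands apart for Mcm2 at 5015.

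All 13 genes of S phase had a difference below 0, and none passed the test. Their median was -0.071, where 48.9% of all genes tested were below 0 and the median over all genes was 0.0027. These genes share tumors, so their signs are not independent. With PBS tumor 4 left out, 9 of the 13 were below 0 and their median was -0.030. Markers of other cells stood beside this. All 5 red blood cell markers tested were above 0 and at an unadjusted p under 0.05 by limma, with a median difference of 1.42 and none called; their summed level ran between 8372 and 58643 normalized counts in PIIO-1 tumors, highest in tumor 5, and between 5488 and 12848 in PBS tumors. All 6 neutrophil markers were above 0, with a median difference of 0.46 and none called, and sums between 15666 and 37517 in PIIO-1 tumors and between 13029.6 and 27082 in PBS tumors. The 5 leukocyte markers were all above 0 (median 0.11). Of 7 T cell markers 6 were below 0 (median -0.070), and of 7 fibroblast markers 5 were (median -0.097). Of 8 macrophage and monocyte markers 5 were above 0 (median 0.072), and of 5 endothelial markers tested 4 were (median 0.091). None of these was called. Mitochondrial reads made up between 1.29% and 3.12% (tumor 5) of the reads in PIIO-1 tumors and between 0.986% and 2.22% in PBS tumors. With PIIO-1 tumor 5 left out, 12 of the 13 S phase genes were below 0 and their median was -0.050. That tumor was the highest for red blood cell markers, neutrophil markers and mitochondrial reads at once, so leaving it out cannot separate them. The part of these cells and of RNA quality was not tested. Mcm2, a subunit of the helicase ring, stood at 4327, 4246, 3791, 3860.0 and 3798 normalized counts in PIIO-1 tumors and at 3981, 4272, 4013, 5015 and 4101 in PBS tumors. PBS tumor 4 was the highest, the other PBS values lay within the PIIO-1 range, and PIIO-1 tumors 3, 4 and 5 lay below every PBS tumor (difference -0.092, SE 0.069).

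The other helicase genes also overlapped between the groups. Mcm5 stood at 3849, 3757, 3429.9, 3352 and 3649 in PIIO-1 tumors and at 3794, 3999.7, 3642, 4313 and 3655 in PBS tumors (difference -0.10, SE 0.059). Mcm7 stood at 4075, 4113, 3672, 3681 and 3724 in PIIO-1 tumors and at 4045, 4192, 3960.4, 4681 and 3847 in PBS tumors (difference -0.10, SE 0.060). For both, PBS tumor 4 was highest and PIIO-1 tumors 3 and 4 lay below every PBS tumor, joined by PIIO-1 tumor 5 for Mcm7. Gins2, a subunit of the GINS complex that joins the helicase, had the smallest p of the 42 genes, unadjusted p = 0.0696 by limma. It stood at 621, 667, 602, 558 and 634 in PIIO-1 tumors and at 631, 702, 647, 693 and 682 in PBS tumors, a difference of -0.12 (SE 0.062). PIIO-1 tumors 1, 3 and 4 lay below every PBS tumor. Mcm3, Mcm4 and Mcm6 differed by -0.071, -0.036 and -0.067, and Cdc6 and Cdc45 by -0.075 and -0.018, with an SE between 0.057 and 0.11. Per kilobase of exon, the 6 subunits of the ring, which assemble in equal numbers, had between 595 (Mcm2) and 1334 (Mcm6) normalized counts. The joined exons of Mcm2 are the longest of the ring, 6956 bases, against between 3589 (Mcm4) and 4666 (Mcm6) for the others. Division by that length lowers the level of Mcm2, so these values do not compare transcript numbers.

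Pcna, the sliding clamp, stood at 6788, 6564, 6397, 6745 and 6939.8 normalized counts in PIIO-1 tumors and at 6912, 7188, 6797, 7421 and 6421 in PBS tumors. PIIO-1 tumor 3 was the lowest and PBS tumor 4 the highest, and its SE of 0.047 was the smallest of the 42 genes (difference -0.054). Rrm1 and Rrm2, the subunits of ribonucleotide reductase, differed by -0.0012 (SE 0.067) and -0.090 (SE 0.076), and Tyms, thymidylate synthase, by -0.023 (SE 0.077).

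The 21 mitosis genes among the members, counting Mki67 and Top2a, were split in direction, while of 41 further mitotic genes 33 were below 0, with a median of -0.036. Of the 21, 12 were above 0, with a median difference of 0.0098, where 51.1% of all genes were above 0. The count was 7 with PIIO-1 tumor 1 left out and 8 with PBS tumor 5 left out, and the median was then -0.019 and -0.013. The count was 17, with a median of 0.040, when PIIO-1 tumor 4 was left out. With PBS tumor 2 left out the median was 0.045 and with PIIO-1 tumor 5 left out 0.020, and with PIIO-1 tumor 2 or 3 or PBS tumor 1, 3 or 4 left out it lay between -0.0064 and -0.0015. Cdk1 stood at 3603, 3393, 3511, 2669 and 2826 normalized counts in PIIO-1 tumors and at 3158, 3563, 3109.5, 3358 and 2995 in PBS tumors. PIIO-1 tumors 4 and 5 lay below the PBS range, while PIIO-1 tumor 1 was the highest of all 10 (difference -0.024, SE 0.088). Ccnb1 (cyclin B1) stood at 3310.5, 3009, 3353, 2857 and 3092 in PIIO-1 tumors and at 3041, 3345, 2856, 3132 and 2828 in PBS tumors, with ranges that nearly coincide (difference 0.040, SE 0.061). Foxm1, the factor that drives mitotic genes, stood at 4264, 3846, 4087, 3497 and 3616 in PIIO-1 tumors and at 4076, 4454, 4046, 4307 and 3976 in PBS tumors. PIIO-1 tumors 2, 4 and 5 lay below every PBS tumor (difference -0.11, SE 0.060). Ccna2 differed by -0.0030 (SE 0.064), Ccnb2 by 0.067 (SE 0.064) and Plk1, the Polo kinase, by -0.085 (SE 0.062).

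Of the 11 spindle, kinetochore and checkpoint genes, 8 were above 0, where 51.1% of all genes were. The count was 4 when PIIO-1 tumor 1, PBS tumor 1 or PBS tumor 5 was left out, and 5 when PBS tumor 3 was. Cenpa, the histone variant that marks centromeres, stood at 4248, 4211, 4443, 4329 and 4882 normalized counts in PIIO-1 tumors and at 4372, 4373, 4006, 3985 and 3796 in PBS tumors. Its difference was 0.11 (SE 0.056), and PIIO-1 tumors 3 and 5 lay above every PBS tumor. Aurka, a spindle pole kinase, differed by 0.081 (SE 0.061), and Aurkb, the kinase of the chromosomal passenger complex, by -0.039 (SE 0.084). Birc5 (survivin), a partner of Aurkb in that complex, differed by 0.0034 (SE 0.063). The checkpoint kinase genes Bub1 and Bub1b differed by 0.017 and 0.0098, the kinetochore genes Cenpe and Cenpf by -0.064 and 0.018, and the spindle genes Kif11, Kif20a and Tpx2 by 0.018, -0.012 and 0.029. Of the genes of mitotic exit, Cdc20 differed by -0.019 (SE 0.061) and Ube2c, its ubiquitin-conjugating partner, by 0.025 (SE 0.081).

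Counted together, 14 of the 42 genes were above 0 and 28 below, with a median difference of -0.030. Single tumors moved this balance. The count above 0 was 8 when PIIO-1 tumor 1 was left out (median -0.056) and 22 when PIIO-1 tumor 4 was (median 0.0049). Leaving out PBS tumor 2 gave a median of -0.0090, PBS tumor 4 one of -0.0092 and PIIO-1 tumor 5 one of -0.012. It was -0.051 with PBS tumor 5 left out, -0.048 with PBS tumor 3, and -0.047 with PBS tumor 1 or PIIO-1 tumor 2.

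The order of the tumors was partly shared among the 42 genes. PIIO-1 tumor 4 held the lowest value of 20 of the 42 genes and lay below the mean over 10 tumors for 39. PBS tumor 4 held the highest value of 15 genes, PBS tumor 2 of 14 and PIIO-1 tumor 1 of 8. The highest tumor exceeded the lowest by between 1.14-fold and 1.43-fold for each gene. S phase and mitosis genes did not always go together. In PBS tumor 4, the library with the fewest reads, all 13 S phase genes stood above their mean, with a median deviation of 0.21 on the log2 scale, while the 21 mitosis genes had a median deviation of 0.026. In PIIO-1 tumor 3 the deviations had opposite signs, -0.063 for S phase and 0.072 for mitosis genes. PBS tumor 2 was high for both (0.078 and 0.13), and PIIO-1 tumor 4 low for both (-0.12 and -0.14).

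**Figure D4:**
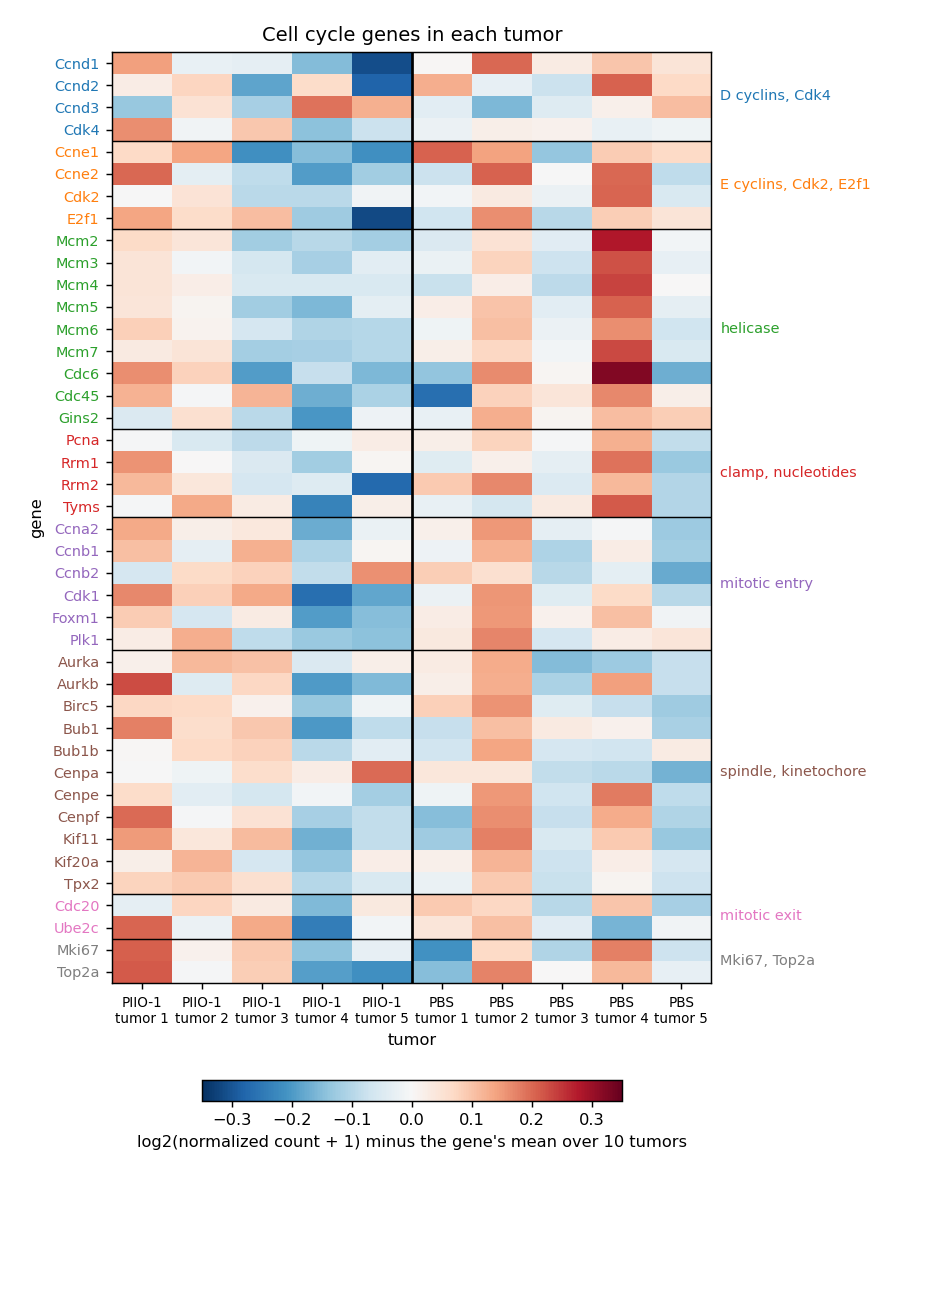
Each row is 1 of the 42 genes, ordered and coloured by role, and each column 1 tumor, PIIO-1 on the left; colour gives log2(normalized count + 1) minus the gene's mean over 10 tumors. PIIO-1 tumor 4 is blue for 39 genes, and PBS tumor 4 is red for all 13 S phase genes.

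Leukocyte markers are set beside these levels tumor by tumor. PIIO-1 tumors 4 and 5 had the highest summed leukocyte markers and median deviations of -0.13 and -0.065 over the 42 genes, and PIIO-1 tumor 1 had the lowest sum and a median deviation of 0.075. PIIO-1 tumors 2 and 3 had sums of 48405 and 38909 and median deviations of 0.039 and 0.022. In PBS tumors 1 to 5 the sums were 51232, 33908.5, 42411.5, 41295 and 47414. Their median deviations were -0.016, 0.11, -0.045, 0.11 and -0.072. Mki67 was related to the leukocyte gene Ptprc with Pearson's r = -0.64 over 10 tumors (2-sided permutation p = 0.0494, adjusted over 3 relations 0.148) and Spearman's rho = -0.61 (permutation p = 0.0666, adjusted 0.200). The relation did not pass the correction. Without PIIO-1 tumors 1 and 5, the farthest from the median of Ptprc, r was -0.54 (permutation p = 0.163, n = 8), so the relation no longer passed at the unadjusted level; fewer tumors and the choice of tumors cannot be told apart here. As deviations from the group means r was -0.69 (permutation p = 0.0294, not adjusted). These permutations ran over all 10 deviations and not within the groups. They did not allow for the estimation of the group means, so this p may be too small. Mki67 and Krt8 gave r = 0.40 (permutation p = 0.244) and rho = 0.41 (permutation p = 0.248), with r = 0.15 without PBS tumor 5 and PIIO-1 tumor 4. Mki67 and the number of recovered reads gave r = -0.54 (permutation p = 0.106) and rho = -0.48 (permutation p = 0.163), with r = -0.26 without PBS tumors 4 and 3. The part of leukocyte content or depth in the levels of cell cycle genes was not tested beyond these relations and the fit with Ptprc as a covariate, in which limma also called 0 of the 42 genes and counted 2 at an unadjusted p under 0.05, against 8.5% of all genes in that fit. There 18 of the 42 genes were above 0 with a median of -0.013, against 14 and -0.030 without the covariate. Below 0 were 11 of the 13 S phase genes, against 13, and 120 of 188 further cell cycle genes, against 134.

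**Figure D5:**
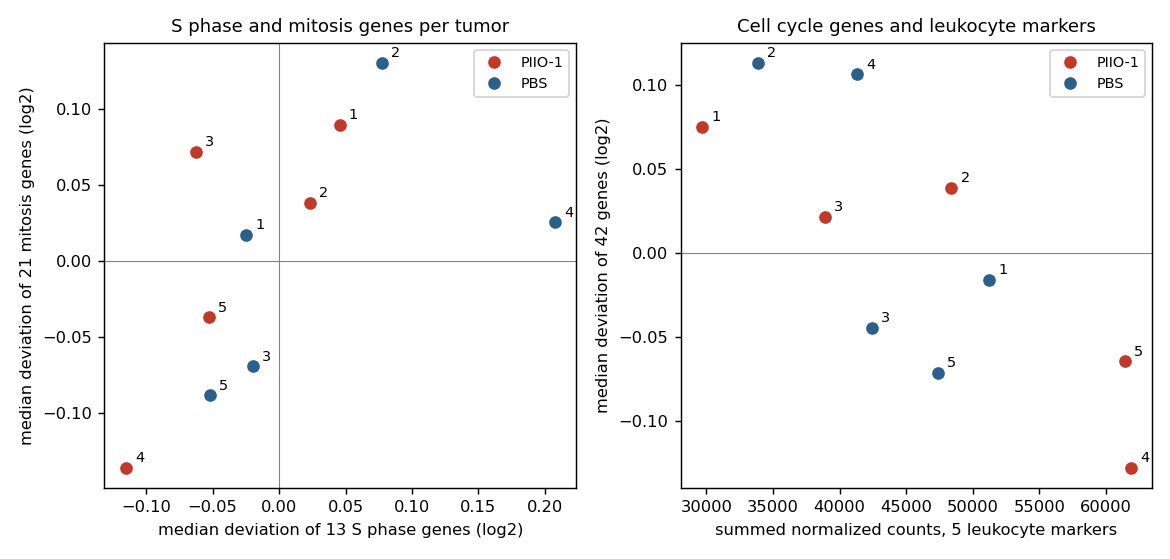
Left, median deviation (log2) of 21 mitosis genes against that of 13 S phase genes for each tumor, numbered, PIIO-1 red and PBS blue; right, median deviation of all 42 genes against the summed normalized counts of 5 leukocyte markers. PBS tumor 4 lies far to the right on the left panel (0.21), and PIIO-1 tumors 4 and 5 lie at the high leukocyte end of the right panel with deviations of -0.13 and -0.065.

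A wider set of 190 cell cycle genes in 10 lists, of which 188 passed the minimum mean, gave no call either. limma called 0 of them in each direction, and edgeR and DESeq2 called 0. limma counted 11 of the 188 at an unadjusted p under 0.05, near the 5.63% of all genes tested. Of the 188, 134 (71.3%) were below 0, against 48.9% of all genes tested, with a median difference of -0.037. With single tumors left out the median lay between -0.060 (PIIO-1 tumor 1) and -0.013 (PIIO-1 tumor 4); it was -0.015 for PBS tumor 2, -0.022 for PBS tumor 4 and -0.024 for PIIO-1 tumor 5. None of these genes had groups that do not overlap, against 0.853% of all genes. In the sentences that follow, the genes named have the smallest p of their list, and none passed the limma test, with adjusted p between 0.837 and 0.865.

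Of 22 origin licensing and firing genes 19 were below 0. Cdt1, which loads the MCM ring, stood at 1976 ± 82.1 normalized counts in PIIO-1 tumors and 2149 ± 75.4 in PBS tumors (SD, n = 5; difference -0.12, SE 0.044), and Mcm10 at 899.9 ± 71.9 in PIIO-1 tumors and 1024 ± 105 in PBS tumors (difference -0.18, SE 0.079). Of 27 polymerase, clamp loader and fork genes 22 were below 0, among them the clamp loader gene Rfc3 (-0.19, SE 0.062) and the chromatin assembly gene Chaf1b (-0.18, SE 0.065). Of 11 nucleotide supply genes 8 were below 0, with the purine synthesis gene Gart at -0.14 (SE 0.066). Of 17 genes of the RB family, other E2Fs and their partner complexes 13 were below 0. Within that list E2f2, an activating E2F, stood at 1321 ± 71.1 in PIIO-1 tumors and 1105 ± 177 in PBS tumors (difference 0.27, SE 0.094), and the RB relative Rbl1 (p107) differed by -0.16 (SE 0.066).

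CDK inhibitors had the highest median of the 10 lists, 0.097, with 4 of 6 genes tested above 0. Cdkn2d (p19), an inhibitor of CDK4, differed by 0.16 (SE 0.069), and Cdkn1a (p21), a target of p53, stood at 14552 ± 1518 in PIIO-1 tumors and 13254 ± 898 in PBS tumors (difference 0.13, SE 0.076). Of 11 checkpoint genes 10 were below 0, with Atm at -0.17 (SE 0.081) and Chek1 at -0.089 (SE 0.071). Of 41 further mitotic genes 33 were below 0, with the checkpoint gene Zwilch at -0.12 (SE 0.073) and the spindle gene Ckap2 at -0.13 (SE 0.085). Among 23 genes of the anaphase-promoting complex and SCF ligases, 13 were below 0; Cks2, a CDK-binding protein, differed by 0.16 (SE 0.062) and Fbxo5, an inhibitor of the complex, by -0.13 (SE 0.081). Of 18 condensin and cohesin genes 9 were below 0, with the cohesin gene Stag2 at 0.065 (SE 0.042) and the condensin gene Ncapd2 at -0.072 (SE 0.057). Of 12 other cyclins and kinases 5 were below 0, with Ccng2, a cyclin linked to growth arrest, at 0.27 (SE 0.12) and Ccnl1, a cyclin of RNA processing, at 0.22 (SE 0.10).

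Counting limits remain for some genes. Exons of 14 members overlap a gene on the other strand (Ccna2, Ccnd1, Ccnd2, Ccnd3, Ccne2, Cdc20, Cdc45, Cdk2, Cdk4, Gins2, Kif20a, Mcm7, Plk1 and Ube2c), and the strand setting of the counting is not given in the sources used here, so reads of the partners cannot be told apart. Foxm1, Mcm7 and Top2a share exon bases with a gene on their own strand.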

How the data were processed

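The submitters' processing notes name HISAT2, featureCounts, DESeq2 and the build GRCm38, without versions; annotation and strand setting are not given. Values, as deposited, are normalized counts, a signal; size factors computed from the recovered reads as DESeq2 does differ from their scaling by less than 0.001 of it. Dividing each column by its smallest value above 0 gave whole reads for 100% of the values within 0.001 read, and 3 reads equal between 2.45 and 4.68 normalized counts. Replicate libraries all differed beyond counting noise, with a chi-square per gene of 10.8 or more. Groups follow the treatment label. The 16767 genes that averaged 10 normalized counts or more were tested as log2(value + 1) in R 4.3.3 by limma 3.58.1, whose variance prior followed the mean level, with 2-sided p-values and Benjamini-Hochberg adjustment over all genes at a threshold of 0.05. On this scale the change of low genes is understated. Alternatives were edgeR 4.0.16 (quasi-likelihood) and DESeq2 1.42.0 on the recovered reads, other pseudocounts (0.5 and 5), filters, scalings and weights, a replicate block, Ptprc as a covariate and each tumor left out. Correlations used 100000 permutations. Coordinates and exon lengths are from GENCODE M21 (GRCm38), in which 23984 of 24202 symbols matched 1 gene. The limma step was checked on simulated data. Members, lists, roles and tests were chosen with earlier results of these data known. The genes given in every tumor are 12 chosen by role and the 6 members with the smallest p; the 2 genes with the smallest p of each further list are named, except 1 gene that is not reported here. The split into S phase and mitosis genes and the counts of intervals were added after the data were seen.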

Additional observations from a re-analysis of the deposited data

Results flagged for a closer look

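Mcm2 in PBS tumor 4 stood at 5015 normalized counts, while the other 4 PBS tumors lay between 3981 and 4272, so that the gap to its nearest neighbour made up 0.719 of the range of the group, above Dixon's limit of 0.71 for 5 samples. It is the one such value among 84 groups examined (42 genes in each of the groups), where chance flags about 1 in 20. The same tumor held the highest value of 15 of the 42 genes and has the fewest reads, 18843192; the part of depth in this was not tested.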

How the results depend on the processing

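No member was called under any of the 22 alternatives, and limma and edgeR called no gene in any of them, while DESeq2 on the recovered reads called 3 genes, none of them a member. At an unadjusted p under 0.05 the members counted between 0 and 3 over the alternatives, in which all genes gave between 3.73% and 9.88%. With each tumor left out in turn, between 8 and 22 members, between 7 and 17 mitosis genes and between 4 and 10 of the 11 spindle, kinetochore and checkpoint genes were above 0. The sign was the same in all fits for 24 members and turned for 18 when a tumor was left out, over these ranges: Ccna2 -0.037 to 0.040, Bub1 -0.025 to 0.069, Bub1b -0.0095 to 0.046, Cenpf -0.030 to 0.061, Kif11 -0.017 to 0.064, Cdc20 -0.050 to 0.017, Rrm1 -0.041 to 0.046, Cdk1 -0.069 to 0.039, Kif20a -0.044 to 0.020, Birc5 -0.027 to 0.043, Mcm4 -0.064 to 0.019, Cdc45 -0.087 to 0.022, Tyms -0.059 to 0.033, Ube2c -0.023 to 0.089, Cdk4 -0.029 to 0.047, Aurkb -0.10 to 0.0052, E2f1 -0.092 to 0.021, Top2a -0.10 to 0.0041. With Ptprc as a covariate, Cdc45 (0.011), Rrm1 (0.011), Ccna2 (0.018) and Cdk1 (0.011) turned sign. With array weights, Rrm1 (0.0028), Tyms (0.0018), Ccna2 (0.0041), Cdk1 (0.011), Kif20a (0.011) and Cdc20 (0.021) did. Birc5 was at -0.00099 with TMM scaling, -0.0029 by edgeR and -0.0063 with upper-quartile scaling. The relation of Mki67 and Ptprc had r = -0.54 without the pair of tumors farthest from the median. For these changes the cause was not tested. A fit with the replicate number as a block called 0 genes and 0 members, with 14 members above 0 and 885 genes at an unadjusted p under 0.05. Tumors of the same number correlated between -0.21 and 0.095, and 1 of 10 tumors correlated best with its own number. No pairing by number was visible in these values. They cannot exclude one, and the labels do not say what a shared number means. The counts of S phase, mitosis, spindle and further genes by sign, and of intervals inside 1.5-fold, under each setting were chosen after seeing the data. PBS tumor 4 has the fewest reads, and the lowest mean of a member is 449 normalized counts.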

Other observations

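Among the CDK inhibitors, Cdkn2a and Cdkn1c did not reach the minimum mean. Cdkn2a, which encodes p16 and p19ARF, averaged 6.36 ± 3.61 normalized counts in PIIO-1 tumors and 8.61 ± 2.59 in PBS tumors (SD, n = 5 each), and Cdkn1c (p57) 7.89 ± 5.07 in PIIO-1 tumors and 7.88 ± 3.93 in PBS tumors, while 3 reads are worth between 2.45 and 4.68 normalized counts. Cdkn1a stood at 14552 and 13254 in PIIO-1 and PBS tumors. Per kilobase of exon, Cdkn1a had 3913 normalized counts, second to Ccnd1 when set beside the 42 members.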
